A study of Mus musculus with 20 samples.

Results

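The D-type cyclins Ccnd1, Ccnd2 and Ccnd3, the kinases Cdk4 and Cdk6 that they activate, and the retinoblastoma gene Rb1 were followed in mouse intestinal tissue. These 6 genes, of 25034 named genes on the array, were taken by name, and every probe that carries one of the names in the scanner files was kept, which gave 16 probes. The 20 arrays are 1-colour Agilent SurePrint G3 mouse arrays with 1 mouse each, in 4 groups. In the first experiment, 6 Cre control mice and 6 BRAFV600E mice, C57BL6/j and 8 to 12 weeks old, were given 2 mg tamoxifen on each of 3 days and killed 3 days after the last dose. Both groups carry VillinCreER, a tamoxifen-activated Cre recombinase that the Villin promoter restricts to gut epithelium. The BRAFV600E mice also carry 1 Braf allele that Cre switches to the V600E mutant, so that only epithelial cells can express the mutant kinase while the RNA came from whole tissue. In the second experiment, 4 MEKi mice received the MEK inhibitor PD184352 and 4 Vehicle mice the carrier alone, in 3 daily injections after 2 tamoxifen injections. The study's methods state the C57BL6/j background for all mice. By the same methods, the tamoxifen injections of the second experiment were fewer and smaller than those of the first, so induction differed between the experiments. The labels give the strain of these 8 mice but not their age, and that they carry the mutant allele was taken from the study's figure legends.

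D cyclins are made when growth signals reach a cell. They bind Cdk4 or Cdk6, and the active kinase phosphorylates the Rb1 protein, which then releases E2F transcription factors so that genes of DNA replication are transcribed. The INK4 and CIP/KIP proteins hold these kinases back. ERK, the kinase at the end of the RAF and MEK cascade, is a known activator of Ccnd1 transcription, and in the gut D cyclins and their kinases serve the dividing cells of the crypt.

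Transcript levels are given as log2 of the processed spot signal minus the 75th percentile of the same array, so that 0 is the level of a fairly bright probe. A level can be set only against the level of the same probe on other arrays, since the brightness of different probes is not comparable. Where a gene has several probes, the one with the highest mean over the 20 arrays is called its main probe. Tests were made with limma on probes that stood well above background on 6 or more of 12 arrays, or 4 or more of 8, and a probe is named as called where its p, adjusted by Benjamini and Hochberg over all probes fitted, was under 0.05. Intervals cover 95% for the probe alone, without correction for the other probes.

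The 60-letter probes were designed on different stretches of the transcripts, and the ends shown here tell apart the probes on which the Ccnd2 and Cdk6 results rest, together with the main probes of Ccnd1 and Rb1. Positions are on mm9, the build in the files, and each line holds letters 31 to 60 of the probe, written 5′ to 3′. Capitals mark the letters AATAAA, the common polyadenylation signal. These letters, searched on both strands, occur in 13.3% of the 56605 probes of the array and in 3 of the 16 probes studied here, 1 for Ccnd2 and 2 for Ccnd3.

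Ccnd2 A_55_P2917114 (main, chr6:127080268-127080327, minus strand): ttctctagttatgtcttgttctttgtgttt
Ccnd2 A_65_P18532 (chr6:127075412-127075471, minus strand): tctaaagtagcagattagtgtgAATAAAaa
Ccnd2 A_52_P53906 (chr6:127098696-127098755, minus strand): tgtgcatttacaccgacaactctgtgaagc
Cdk6 A_51_P489779 (main, chr5:3529287-3529346, plus strand): tgtgtattgtttctgtattcccacagggac
Cdk6 A_55_P2736430 (chr5:3525114-3525173, plus strand): tgcttgcttgtaacatgaaattaaagacat
Ccnd1 A_66_P111562 (the single probe, chr7:152116202-152116261, minus strand): gttttgtgttaattacagcattgtgctaat
Rb1 A_51_P136888 (main, chr14:73595408-73595467, minus strand): aaagctgcagacactgcactattggttttg

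On the genome, the main Ccnd2 probe lies 4.86 kb and A_52_P53906 lies 23.28 kb upstream of A_65_P18532, in the direction of transcription. The Cdk6 probes A_55_P2736430 and A_66_P113861 lie 4.17 kb and 7.2 kb upstream of the main probe. Exon and UTR boundaries on this build were not analysed here.

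A pair of Ccnd3 probes overlaps in 53 letters and is shown because the probes report nearly the same stretch of RNA. The lines hold letters 24 to 53 of A_55_P2041075, the main probe, and the matching letters 31 to 60 of A_55_P2918958. Capitals mark the letters that differ, and from A_55_P2918958 to A_55_P2041075 these are A31C and G53A, counted from the 5′ end of A_55_P2041075.

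Ccnd3 A_55_P2041075 (main, chr17:47736579-47736638, plus strand): ttctatcCtgctgccttaataaagatttcA
Ccnd3 A_55_P2918958 (chr17:47736572-47736631, plus strand): ttctatcAtgctgccttaataaagatttcG

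Between 60.8% and 76.8% of spots were well above background on each array, and 0 spots were saturated. All 10 epithelial markers listed to check the tissue, Vil1, Epcam and Cdx2 among them, were well above background on every array. The 6 Cre control arrays shared slide 1 with replicates 1 and 2 of BRAFV600E, whose replicates 3 to 6 were alone on slide 2. Slide 3 carried the second experiment, with MEKi in 1 row and Vehicle in the other, so that row and group cannot be told apart there. The slope over the spike-in controls was listed as 0 on the 4 arrays of slide 2. The mean level of 4 Y-linked genes split the arrays into a high and a low set, with 3 of 6 Cre control, 4 of 6 BRAFV600E, 4 of 4 MEKi and 2 of 4 Vehicle arrays in the high set. The methods state equal numbers of males and females in each group of the first experiment, which the BRAFV600E arrays did not match. Nothing in the sources pairs the mice across groups.

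In BRAFV600E intestine, Ccnd2 and Cdk6 fell and the other 4 genes did not pass the test. Of the 15 probes tested, 3 were called, all lower, namely 2 of 3 Ccnd2 probes and the main Cdk6 probe. Over all 38501 probes fitted, 9.6% were called and 4.35% were called lower. The same 3 probes were those whose groups did not overlap, against 6.52% of all probes. The median log2 difference of the 15 probes was -0.07, that of all probes -0.01. Probes of 1 gene read the same RNA, so the 3 calls stand for 2 genes.

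**Figure D1:**
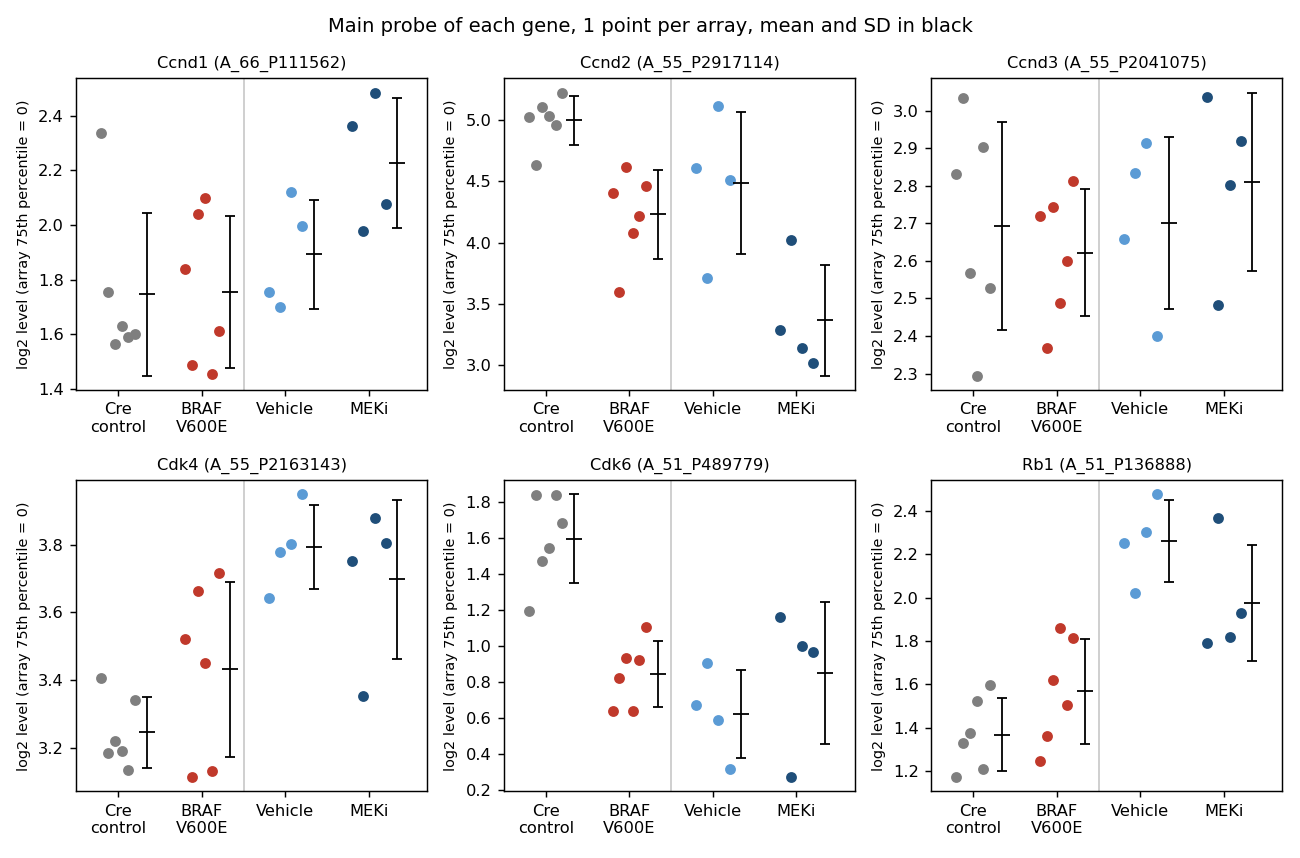
Log2 level (y axis, 0 is the 75th percentile of the array) of the main probe of each gene, with 1 point per array and the mean and SD of each group in black; the grey line parts the 2 experiments. The BRAFV600E arrays lie below every Cre control array for Ccnd2 and Cdk6 and overlap with them for the other 4 genes.

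Ccnd2, the D cyclin that MYC and many mitogens are known to induce, had a main-probe level of 4.64 to 5.22 in Cre control tissue, with a median of 5.03. In BRAFV600E tissue the level ran from 3.60 to 4.61 with a median of 4.31. The groups did not overlap, and the lowest array was BRAFV600E replicate 2, which also had the lowest mean level of enterocyte markers, 5.14 against 6.46 to 7.10 on the other BRAFV600E arrays. The difference was -0.77 on the log2 scale (SE 0.18, interval -1.15 to -0.38, n = 6 and 6, limma adjusted p = 0.0205), a 1.70-fold lower signal, and without replicate 2 of BRAFV600E it was -0.64 (adjusted p = 0.0296).

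The second Ccnd2 probe, A_65_P18532, lay between 3.53 and 4.06 in Cre control tissue (median 3.72) and between 2.53 and 3.42 in BRAFV600E tissue (median 3.15). Again no array of one group reached the range of the other. The difference was -0.66 (SE 0.17, limma adjusted p = 0.0349). This call is near the threshold: the adjusted p ran from 0.0292 to 0.0793 when each array was left out in turn and stayed under 0.05 only without Cre control replicate 4, BRAFV600E replicate 3 or BRAFV600E replicate 4.

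At A_52_P53906, the Ccnd2 probe farthest upstream, Cre control arrays lay between 1.13 and 2.44 (median 2.03) and BRAFV600E arrays between 1.26 and 1.88 (median 1.45). The groups overlapped through Cre control replicate 2, the lowest of all 12 arrays, while the other 5 Cre control arrays were above every BRAFV600E array. The difference was -0.44 (interval -0.90 to 0.01, limma adjusted p = 0.195), and without that array it was -0.61 (adjusted p = 0.0539).

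Cdk6, the partner kinase of D cyclins best known from blood cells, had the lowest adjusted p of the 15 probes. Its main probe ran from 1.20 to 1.84 in Cre control tissue (median 1.62) and from 0.64 to 1.11 in BRAFV600E tissue (median 0.87). All 6 BRAFV600E arrays were below the lowest control. The difference was -0.75 (SE 0.15, interval -1.07 to -0.43, limma adjusted p = 0.00927), a 1.69-fold lower signal.

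The remaining Cdk6 probes were dim. A_55_P2736430 lay between -3.72 and -2.19 in Cre control tissue (median -2.73) and between -4.69 and -2.48 in BRAFV600E tissue (median -3.66). The groups overlapped, and the difference was -0.71 (interval -1.53 to 0.10, limma adjusted p = 0.241). Within slide 1 alone it was 0.18, of the opposite sign. A_66_P113861 was well above background on 2 of 6 arrays in each of these groups and was not tested. Across the 20 arrays, centred within each experiment, the level of the main Cdk6 probe correlated with those of the other Cdk6 probes at r = -0.07 and r = -0.38, while the 3 Ccnd2 probes correlated with each other at 0.84 to 0.96. The Cdk6 call thus rests on 1 probe.

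**Figure D2:**
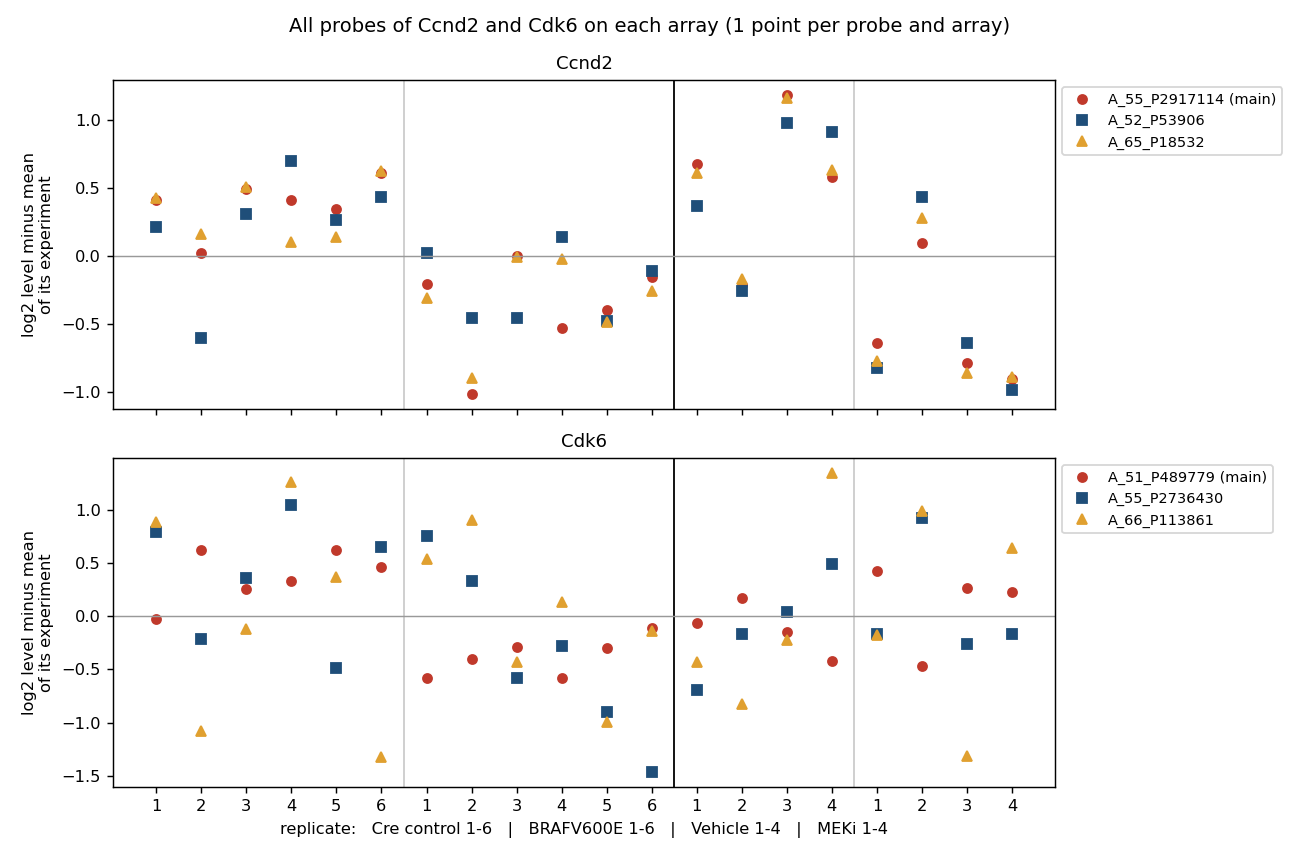
Level of every Ccnd2 and Cdk6 probe on each array, as the log2 level minus the mean of that probe over its own experiment (y axis); replicates on the x axis only name the arrays. The 3 Ccnd2 probes move together across arrays, and the 2 dim Cdk6 probes do not follow the main probe.

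The batch of slides touches both calls. With slide as a block, which leaves BRAFV600E replicates 1 and 2 to be set against the controls of the same slide, the main Ccnd2 probe differed by -0.99 (adjusted p = 0.0379) and the main Cdk6 probe by -0.87 (adjusted p = 0.0358). These replicates read 4.41 and 3.60 at the main Ccnd2 probe. The lower value is from replicate 2, the array with the lowest enterocyte markers, and its part in the wider difference was not tested. In a fit of slide 1 alone the differences were the same and the adjusted p values were 0.0937 and 0.0933, so that 0 of the 15 probes were called with 2 mutant arrays. Both calls held when any 1 of the 12 arrays was left out, with adjusted p up to 0.0487 for Ccnd2 and 0.0254 for Cdk6.

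Without scaling between arrays, the main Ccnd2 and Cdk6 probes differed by 0.04 and 0.06. In that setting the median difference of all probes was 0.80. Scaling subtracts the same value from every probe of an array, so it leaves the place of a probe against the median probe as it was. That both genes lay below the median probe without scaling is therefore no separate observation. Lower here therefore means lower relative to the other probes of the same array.

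Ccnd1, the D cyclin most closely tied to ERK signalling, showed no difference that could be told from 0. Its single probe lay between 1.56 and 2.34 in Cre control tissue (median 1.61) and between 1.45 and 2.10 in BRAFV600E tissue (median 1.72). The highest array of all 12 was Cre control replicate 1. The difference was 0.0095 (interval -0.37 to 0.39, limma adjusted p = 0.981).

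Ccnd3, the D cyclin of many differentiating cells, had a main-probe level of 2.29 to 3.03 in Cre control tissue (median 2.70) and 2.37 to 2.81 in BRAFV600E tissue (median 2.66). The ranges overlapped almost fully. The difference was -0.07 (interval -0.40 to 0.26, adjusted p = 0.804), and the other Ccnd3 probes differed by -0.09 and -0.10. The overlapping pair of probes correlated at 0.94 across the 20 arrays, and each correlated with A_55_P2856671, 3.94 kb upstream, at 0.56 to 0.59.

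Cdk4, the other D cyclin kinase, was nominally higher at all 4 probes, and none was called. Its main probe lay between 3.13 and 3.41 in Cre control tissue (median 3.20) and between 3.11 and 3.72 in BRAFV600E tissue (median 3.49). In this group 4 of 6 arrays were above the control range and replicates 2 and 5 were just below it. The difference was 0.19 (interval -0.12 to 0.49, adjusted p = 0.418).

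The most upstream Cdk4 probe, A_55_P2166639, gave a larger value. Cre control arrays lay between 0.71 and 1.20 (median 1.03) and BRAFV600E arrays between 1.12 and 1.74 (median 1.53), with 5 of 6 above the control range. The difference was 0.49 (interval 0.16 to 0.83, limma adjusted p = 0.0613), which passed the threshold without Cre control replicate 4 (0.54, adjusted p = 0.0490) or BRAFV600E replicate 5 (0.57, adjusted p = 0.0439). It was also called among probes above background on every array (adjusted p = 0.0442), in the fit of all 20 arrays (0.0332) and with array weights (0.0350). Without scaling it was called too, in a setting where 16289 of all 38501 probes were called and 98.2% of those were higher. The difference dropped to 0.41 (adjusted p = 0.279) once slide was a block. The other Cdk4 probes differed by 0.16 and 0.12. A_55_P1998186 shares 53 letters with the main probe, all equal, so those probes are not separate readings.

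Rb1, the target that Cdk4 and Cdk6 phosphorylate, lay between 1.17 and 1.60 in Cre control tissue (median 1.35) and between 1.25 and 1.86 in BRAFV600E tissue (median 1.56) at its main probe. The groups overlapped, with 3 of 6 BRAFV600E arrays above the control range. The difference was 0.20 (interval -0.11 to 0.51, adjusted p = 0.399). The dimmer Rb1 probe A_55_P2638217 spread from -2.11 to -0.29 within the controls alone, and its difference of 0.56 had an interval of -0.28 to 1.40.

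**Figure D3:**
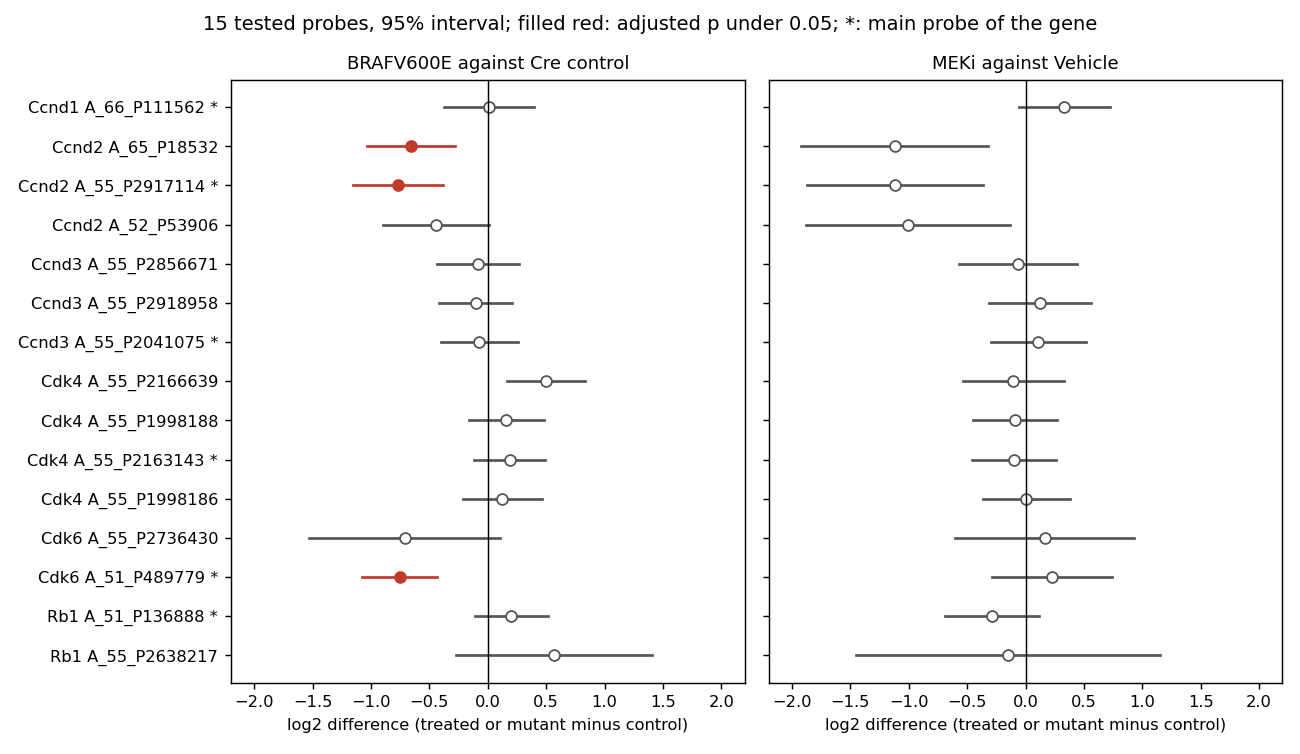
Log2 difference between groups (x axis) of the 15 tested probes (rows), with the 95% interval of the single probe, for both comparisons; filled red points were called at an adjusted p under 0.05 and a star marks the main probe. In BRAFV600E tissue 2 Ccnd2 probes and 1 Cdk6 probe were called lower, and under MEKi 0 probes were called, with all 3 Ccnd2 probes between -1.12 and -1.01.

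Under MEK inhibition 0 of the 15 probes were called by limma, where 0.935% of all 39249 probes fitted were. At an unadjusted p under 0.05 there were 3 probes, the 3 of Ccnd2. The groups overlapped at all 15 probes, while 9.98% of all probes had groups that did not overlap. The median difference of the 15 probes was -0.09, that of all probes 0.03.

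Ccnd2 was the member with the widest difference between MEKi and Vehicle tissue. Its main probe read 4.61, 3.72, 5.12 and 4.51 on Vehicle arrays 1 to 4 and 3.29, 4.03, 3.14 and 3.02 on MEKi arrays 1 to 4. MEKi replicates 1, 3 and 4 lay below every Vehicle array, and MEKi replicate 2 lay above Vehicle replicate 2. The difference was -1.12 (SE 0.33, interval -1.87 to -0.37, n = 4 and 4, limma adjusted p = 0.197). The spread within Vehicle (SD 0.58) was above that within Cre control tissue (SD 0.20). The other Ccnd2 probes gave -1.12 (adjusted p = 0.221) and -1.01 (adjusted p = 0.302) with the same 3 arrays below the Vehicle range.

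This reading changed with how the spread was estimated. In a fit of all 20 arrays with a shared spread the main Ccnd2 probe was called (adjusted p = 0.0477), and with array weights, which gave less weight to arrays far from their group, the 3 probes were called at -1.49, -1.47 and -1.40. Over all 39249 probes fitted, 538 and 1338 were called in these settings, against 367 in the main fit. With each of the 8 arrays left out in turn, 0 probes were called and the main probe ran from -1.38 to -0.91, with adjusted p from 0.0879 to 0.440.

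Ccnd2 was thus lower in the mutant group and in the inhibitor group, each against its own control. It lay 0.77 below Cre control in BRAFV600E tissue, where it was called, and 1.12 below Vehicle in MEKi tissue, where it was not. The comparisons share no arrays. Whether the differences are of unlike size was not tested.

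Ccnd1 read 1.75, 1.70, 2.12 and 1.99 on Vehicle arrays and 2.36, 1.98, 2.48 and 2.08 on MEKi arrays. Here 2 of 4 MEKi arrays were above the Vehicle range. The difference was 0.33 (interval -0.06 to 0.72, adjusted p = 0.463).

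The main Ccnd3 probe read 2.66, 2.83, 2.91 and 2.40 on Vehicle arrays and 3.04, 2.48, 2.80 and 2.92 on MEKi arrays, a difference of 0.11 (interval -0.30 to 0.51). For Cdk4, the main probe read 3.64, 3.78, 3.80 and 3.95 on Vehicle arrays and 3.75, 3.35, 3.88 and 3.81 on MEKi arrays. Only MEKi replicate 2 lay outside the Vehicle range. The Cdk4 difference was -0.10 (interval -0.46 to 0.26).

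The main Cdk6 probe read 0.67, 0.91, 0.59 and 0.32 on Vehicle arrays and 1.16, 0.27, 1.00 and 0.97 on MEKi arrays. MEKi replicate 2 was the lowest array of all 8 and the other MEKi arrays were the highest. The difference was 0.23 (interval -0.29 to 0.74, adjusted p = 0.747), and without that array it was 0.42 (adjusted p = 0.296). Rb1 read 2.25, 2.02, 2.30 and 2.48 on Vehicle arrays and 1.79, 2.37, 1.82 and 1.93 on MEKi arrays at its main probe, where the same 3 MEKi arrays were below the Vehicle range. The difference was -0.29 (interval -0.69 to 0.12, adjusted p = 0.564).

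MEKi replicate 2 therefore stood apart from the other MEKi arrays for Ccnd2, Cdk4, Cdk6 and Rb1. Vehicle replicate 2, the lowest Vehicle array at all 3 Ccnd2 probes, had a mean level of Paneth cell markers of 3.91 against 5.32 to 5.69 on the other Vehicle arrays, and of enterocyte markers of 6.29 against 6.98 to 7.13. Without it the main Ccnd2 difference was -1.38 (adjusted p = 0.0879), and without MEKi replicate 2 it was -1.34 (adjusted p = 0.113). The MEKi arrays were all in the high Y-linked set and the Vehicle arrays were split. With the Y-linked level as a covariate the main Ccnd2 difference was -1.51 (adjusted p = 0.201). Its part in the result was not tested further.

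The other genes of the pathway were read from 10 lists with 115 genes, 1 main probe each, 114 of them tested. In BRAFV600E tissue 16 were called higher and 3 lower, where 5.19% and 5.35% of all 19041 main probes were. In MEKi tissue 1 was called higher and 8 lower, where 0.692% and 0.546% of all 19231 main probes were. These counts moved with the setting. In BRAFV600E tissue the 19 calls became 11 with slide as a block, 6 within slide 1 and 9 without Cre control replicate 5, and under MEKi the 9 calls became 1 with the Y-linked covariate, 2 with the array column as a block and 3 without MEKi replicate 1. Calls over all probes fell in the same settings, from 3695 to 1976, 715 and 2237 in BRAFV600E tissue and from 367 to 6, 13 and 42 under MEKi. Which of the genes named next kept their call in each setting was not followed, and several adjusted p values lie near 0.05. Most of the calls came from the ERK output genes, which were listed because they follow ERK activity. All 10 lists were chosen with earlier results of these data known, so the counts are descriptions and not a test of the lists.

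Of the 15 ERK output genes, 11 rose in BRAFV600E tissue (median difference 0.86) and 7 fell under MEKi (median -1.40). Etv4, an ETS transcription factor, rose by 2.50 (adjusted p = 0.00028) and dropped by 2.95 (adjusted p = 0.0045). Spry4, a feedback inhibitor of the cascade, rose by 2.19 and dropped by 2.34. Phlda1 rose by 1.76 and dropped by 2.14, and Dusp4, a phosphatase of ERK, rose by 1.65 and dropped by 1.70. Ccnd1, often counted as an ERK target, was not among the called genes in either experiment.

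Among 22 transcription factors known to act on D cyclin genes, 4 rose in BRAFV600E tissue and 2 fell under MEKi. Besides Etv4, these were Egr1, an immediate early gene (1.26 in BRAFV600E tissue, adjusted p = 0.015), Etv5 (1.00 and, under MEKi, -2.57) and Ctnnb1, the Wnt effector (0.82, adjusted p = 0.0353). Etv4, Etv5 and Egr1 stand in both of these lists. Myc, a known activator of Ccnd2, differed by 0.94 in BRAFV600E tissue (adjusted p = 0.0579) and by -1.01 under MEKi (adjusted p = 0.159); it was chosen for mention after its values were seen.

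Of the later cyclins and kinases, 3 of 9 tested rose in BRAFV600E tissue. These were Cdk1, the kinase of mitotic entry (1.15, adjusted p = 0.0258), Ccna2, the cyclin of S phase (0.76, adjusted p = 0.0400), and Cdc25c, a phosphatase that activates Cdk1 (0.67, adjusted p = 0.0348). Under MEKi 0 of 9 were called, with a median of 0.04. Ccne2 was too dim to test. Of the 28 E2F targets of DNA replication, 1 was called higher in BRAFV600E tissue, where 5.19% of all main probes were. It was Rrm2, a subunit of ribonucleotide reductase (0.59, adjusted p = 0.00826). Above 0 were 22 of 28 differences, with a median of 0.26, where 48.7% of all probes fitted were above 0. Under MEKi 0 were called, 4 of 28 were above 0 and the median was -0.29, where 53.7% of all probes fitted were above 0.

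The inhibitors of the kinases did not pass the test in either experiment. In BRAFV600E tissue the INK4 genes differed by -0.0051 (Cdkn2a), 0.52 (Cdkn2b, adjusted p = 0.0918), -0.09 (Cdkn2c) and 0.13 (Cdkn2d). Under MEKi the same genes differed by 0.0095, -0.26, 0.36 and 0.43. The CIP/KIP genes Cdkn1a, Cdkn1b and Cdkn1c differed by 0.19, 0.0087 and -0.12 in BRAFV600E tissue, and by -0.45, 0.39 and 0.15 under MEKi.

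Pocket proteins and E2F factors, 12 in number, had 0 calls in both experiments, with 11 of 12 above 0 and a median of 0.49 in BRAFV600E tissue and a median of -0.13 under MEKi. The 5 genes of the Cdk-activating kinase and its chaperones and the 8 genes of D cyclin turnover had 0 calls as well, with medians of 0.23 and -0.02 in BRAFV600E tissue and -0.07 and 0.03 under MEKi. Main probes of all genes had a median of -0.02 in the first comparison.

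Wnt targets, which mark crypt base cells, went the other way in part. Of 14, 3 fell in BRAFV600E tissue, namely the stem cell factor Ascl2 (-1.52, adjusted p = 3.38e-05), Lgr5 (-0.84, adjusted p = 0.0488) and Axin2 (-0.72, adjusted p = 0.0458). Under MEKi Ascl2 rose by 1.00 (adjusted p = 0.0486) and Cd44 fell by 0.91 (adjusted p = 0.0472).

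**Figure D4:**
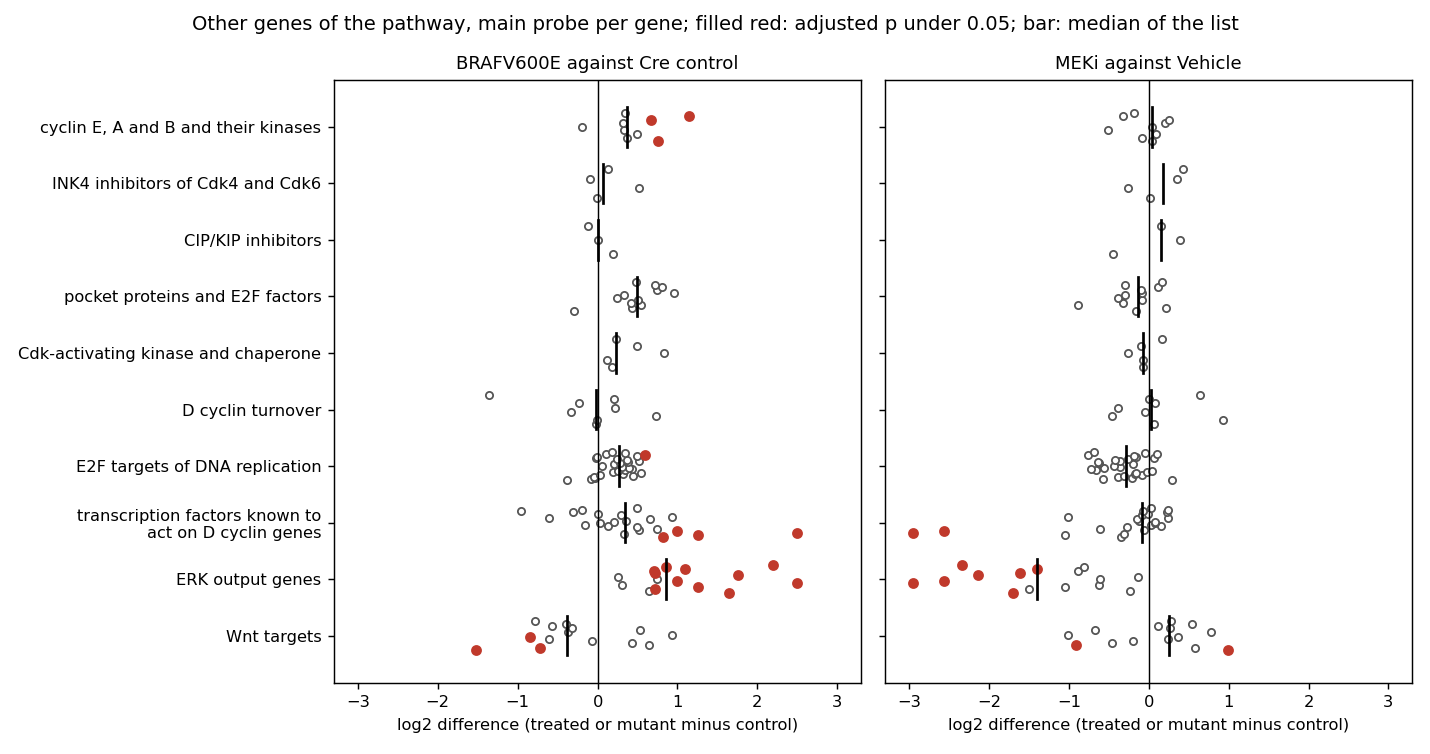
Log2 difference (x axis) of each tested gene of the 10 pathway lists (rows), main probe only, for both comparisons; filled red points were called at an adjusted p under 0.05 and bars mark the list medians. The ERK output genes lie to the right in BRAFV600E tissue and to the left under MEKi, while the INK4 and CIP/KIP inhibitors have no filled point.

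In bulk tissue, fewer cells of a type and less RNA per cell cannot be told apart. Cdk6 and Ccnd2 are also active in lymphocytes, and T lymphocyte markers moved with the first comparison. All 10 of these markers on the array were above background on every array, so none was at background. In BRAFV600E tissue 3 of 10 fell (Cd3g, Cd8a and Lck), where 5.35% of all main probes were called lower, and 9 of 10 were below 0. The mean level of the list ran from 0.10 to 1.51 (median 1.00) there, against 1.00 to 1.79 (median 1.69) in Cre control tissue, so that these groups overlapped. Under MEKi 0 of 10 were called and the mean ran from 0.87 to 1.84 (median 1.05), against 0.09 to 0.85 (median 0.49) in Vehicle tissue, so that those groups did not overlap. Their part in the Ccnd2 and Cdk6 results was not tested.

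**Figure D5:**
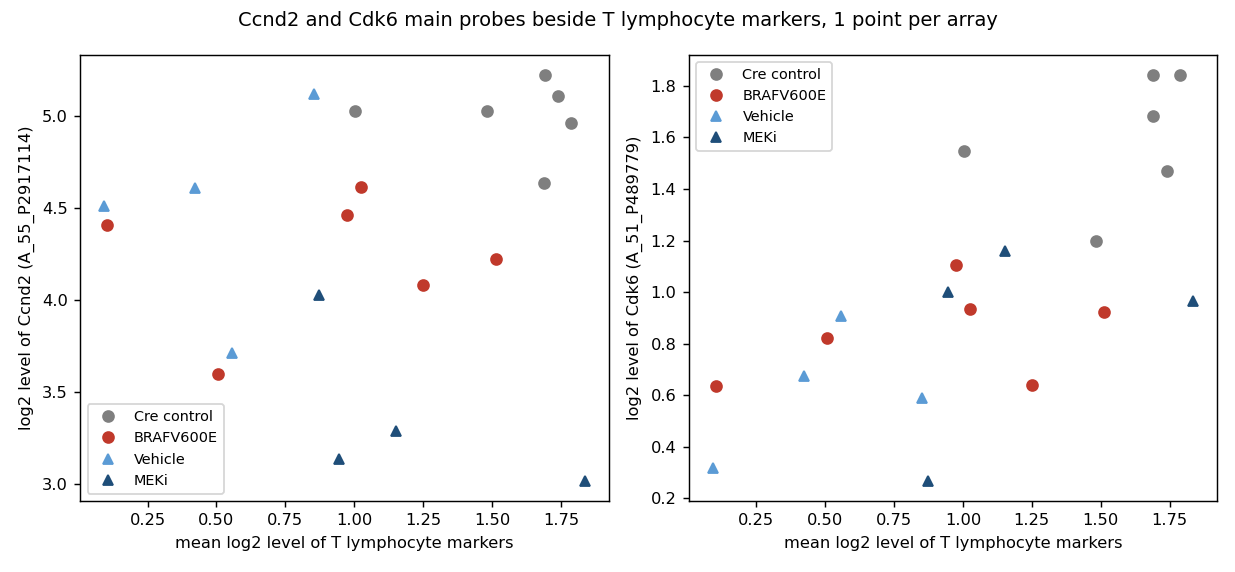
Log2 level of the main Ccnd2 and Cdk6 probes (y axes) against the mean log2 level of 10 T lymphocyte markers (x axis), 1 point per array, with circles for the first experiment and triangles for the second. In the first experiment the T lymphocyte levels run from 0.10 to 1.51 on BRAFV600E arrays and from 1.00 to 1.79 on Cre control arrays, and in the second the MEKi arrays have the higher T lymphocyte levels and mostly the lower Ccnd2 levels.

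Markers of other cells also moved. As a scale for these counts, 5.35% of all 19041 main probes were called lower and 5.19% higher in BRAFV600E tissue. Among all probes fitted, 48.7% of differences were above 0. Of the 10 epithelial markers 3 were called higher and 6 were above 0, with a mean level of 6.01 to 6.46 against 5.68 to 6.15 in Cre control tissue. Paneth cell markers had 4 of 6 called lower in BRAFV600E tissue, with a mean level of 2.96 to 4.81 against 5.52 to 6.64 in Cre control tissue. Stem cell markers had 3 of 8 called lower, with 0.43 to 0.70 against 0.99 to 1.19. Ascl2 and Lgr5 stand both in this list and among the Wnt targets, so their calls are the same observations. Enteroendocrine markers had 3 of 8 called lower and 1 higher, with 1.38 to 1.90 against 1.94 to 2.51. The groups did not overlap in the mean level of the Paneth cell, stem cell and enteroendocrine lists. Goblet cell markers had 2 of 8 called lower and 1 higher, with 2 of 8 above 0 and a median difference of -0.58. Tuft cell markers had 2 of 6 called lower and 1 of 6 above 0, with a median of -0.66. Of the enterocyte markers 1 of 10 was called higher, while 3 of 10 were above 0 and the median was -0.42. Myeloid markers had 2 of 6 called lower, with 2.34 to 2.97 against 2.94 to 3.43. B lymphocyte and plasma cell markers had 1 of 8 called lower and 1 of 8 above 0, with -1.80 to -0.51 against -1.09 to -0.48. Smooth muscle markers had 2 of 6 called higher and 6 of 6 above 0, while fibroblast and endothelial markers had 0 of 6 called each. Markers of dividing cells had 3 of 10 called higher and 10 of 10 above 0, with a median level of 1.65 against 0.85 and groups that overlapped. Cdk1 stands both in this list and among the later cyclins and kinases. Under MEKi 1 of 8 stem cell markers, Ascl2, was called higher, where 0.692% of all main probes were, and 0 markers of the other lists were called. Their part in the results for the D cyclins and kinases was not tested.

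The genes whose level over the 20 arrays, centred within each experiment, was most like that of a member were sought among 15374 genes above background on every array. For Cdk4 these were Ercc6l (r = 0.91) and Rad51ap1 (0.90), and for Ccnd1 they were 4732440D04Rik (0.80) and Foxm1 (0.79). For Cdk6 they were Flt3l (0.95) and Nenf (0.92), both of which were called lower in BRAFV600E tissue, by -0.79 and -0.64. The closest genes were Ccdc186 and Rrn3 for Ccnd2 (both 0.82), Txlna and Sumf2 for Ccnd3 (0.86 and 0.84) and Gclm and Sox13 for Rb1 (0.88 and 0.87). The arrays share group differences and scaling, and these values are descriptions.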

How the data were processed

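Per the file headers and labels, the authors scanned Cy3-labelled arrays and extracted them with Agilent Feature Extraction 10.5.1.1, which wrote a background-subtracted, detrended processed intensity per spot, not scaled between arrays. The deposited value table held the same intensity. Marks of 0 or 1 for each spot (well above background, outlier), which the authors deposited beside it, were used as filters. Control and outlier-marked spots were left out, copies of a probe were averaged, and log2 intensity minus the 75th percentile of the array was used. Each comparison was fitted apart with limma 3.58.1 (lmFit, eBayes, R 4.3.3), two-sided, without covariates, with Benjamini-Hochberg adjustment over all probes fitted; the script was tested on simulated data. Probe names are those of the files, and other genes were named through RefSeq (GRCm38.p6, names only). The labels' treatment text describes a statin, fits no group and was not used. Named genes were every member probe, up to 4 called genes of each list by size, and all INK4 and CIP/KIP genes. The members and lists were chosen with earlier results of these data known. Mice were 1 per array; the number of arrays limits the precision. Alternatives were other scalings and filters, 1 probe per gene, a joint fit, array weights, a Y-linked covariate, slide or array column as a block, and leaving out each array.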

Additional observations from a re-analysis of the deposited data

Results flagged for a closer look

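Among the 64 sets made by 16 probes in 4 groups, 6 held an array set apart from the rest of its group by Dixon's ratio, a rule that flags about 1 in 20 sets by chance. Ccnd1 was highest in Cre control replicate 1, at 2.34, with the nearest array at 1.75. Ccnd2 probe A_52_P53906 was lowest in Cre control replicate 2, at 1.13. The remaining 4 sets all set apart MEKi replicate 2: Ccnd2 probe A_65_P18532 was highest there (2.92), Cdk6 probe A_55_P2736430 was highest there (-3.43), and Cdk4 probes A_55_P1998188 (2.31) and A_55_P1998186 (2.72) were lowest there. The Cdk4 probes read the same gene, so these sets are not separate observations.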

How the results depend on the processing

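Of the single probes, the main Ccnd2 and Cdk6 probes kept their BRAFV600E call under every alternative that keeps a scaling between arrays except within slide 1, where 0 probes were called. Ccnd2 A_65_P18532 lost it without a filter on dim probes (adjusted p = 0.0642), in the fit of all 20 arrays (0.0607), with the Y-linked covariate (0.0580) and within slide 1. Cdk4 A_55_P2166639, not called as reported, was called with 4 of these alternatives, given beside its values. Of 171 alternative values of BRAFV600E probes, without those that leave out an array, 136 kept direction and call and 20 changed sign, and of 155 MEKi values 142 and 9. Without scaling, 9 member probes and 89 pathway genes were called in BRAFV600E tissue, and 3 pathway genes under MEKi. Over all probes in that setting, 16289 of 38501 were called in BRAFV600E tissue and 55 of 39249 under MEKi. The share of all called probes that were higher in BRAFV600E tissue was 54.7%, 98.2% without scaling, and 40.8% with the percentile taken over probes above background on every array. The cause of these changes was not tested.

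Pathway genes called in BRAFV600E tissue numbered 19, and 12 without a filter, 31 in the fit of all 20 arrays, 33 with array weights, 11 with slide as a block and 6 within slide 1. In the same order, the calls over all probes numbered 3695, 2476 (of 56605 fitted), 5848, 5224, 1976 and 715. Leaving out each array gave 9 to 28 (11 without Cre control replicate 2 or 3, 9 without 5, 10 without BRAFV600E replicate 2, 12 without 3 or 4), and 2 to 4 member probes. Under MEKi, the 9 pathway genes became 5 without a filter, 15 with array weights, 1 with the Y-linked covariate and 2 with the array column as a block, and 3 to 8 when an array was left out (3 without MEKi replicate 1, 4 without MEKi replicate 3 or 4 or Vehicle replicate 1, 3 or 4). Member probes called under MEKi were 1 in the fit of all 20 arrays and 3 with array weights. All probes called under MEKi numbered 367 of 39249 in the main fit and 140 of 56605 without a filter. They numbered 538 in the fit of all 20 arrays, 1338 with array weights, 6 with the Y-linked covariate and 13 with the array column as a block.

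Signs changed as follows, in log2 differences. In BRAFV600E tissue, Ccnd1 was at -0.15 with normexp and quantile normalization, -0.047 with quantile normalization, -0.044 with the percentile over probes above background on every array, -0.012 with the Y-linked covariate and -0.082 with slide as a block or within slide 1. Slide as a block and slide 1 alone also gave -0.0019 for Cdk4 A_55_P1998186, 0.18 for Cdk6 A_55_P2736430 and -0.063 for Rb1 A_51_P136888. Without scaling, the Ccnd2 probes A_65_P18532, A_55_P2917114 and A_52_P53906 were at 0.16, 0.044 and 0.37, the Ccnd3 probes A_55_P2856671, A_55_P2918958 and A_55_P2041075 at 0.72, 0.71 and 0.74, and the Cdk6 probes A_55_P2736430 and A_51_P489779 at 0.097 and 0.057. Leaving out an array moved Ccnd1 between -0.0595 and 0.13 and Ccnd3 A_55_P2856671 between -0.16 and 0.0012.

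Under MEKi, Cdk6 A_55_P2736430 was at -0.0495 with normexp and quantile normalization and Cdk4 A_55_P1998186 at -0.016 without scaling. Array weights gave 0.049 for Ccnd3 A_55_P2856671, 0.0045 for Cdk4 A_55_P2166639, 0.057 for A_55_P1998188 and 0.0055 for A_55_P2163143. The Y-linked covariate gave 0.17 for Cdk4 A_55_P2166639, 0.0446 for A_55_P1998188 and 0.0081 for Rb1 A_55_P2638217. Leaving out an array moved Rb1 A_55_P2638217 between -0.66 and 0.21, Cdk6 A_55_P2736430 between -0.12 and 0.35, Ccnd3 A_55_P2856671 between -0.16 and 0.13 and A_55_P2918958 between -0.012 and 0.24, and the Cdk4 probes A_55_P1998186, A_55_P1998188, A_55_P2163143 and A_55_P2166639 between -0.043 and 0.14, -0.14 and 0.017, -0.16 and 0.019, and -0.21 and 0.0031.

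No paired analysis was possible because the replicate numbers only name the arrays and nothing in the labels pairs mice across groups. Signals near background, as at the dim Cdk6 probes, limit what these arrays resolve.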
